A study of Homo sapiens with 15 samples.

Results

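The mRNA levels of 10 genes of the unfolded protein response of the endoplasmic reticulum (ER), XBP1, HERPUD1, EDEM1, SDF2L1, CRELD2, PDIA4, HYOU1, CALR, CANX and MANF, were examined in U87MG cells. They were chosen by symbol as known targets of the XBP1 and ATF6 branches of this response. All 10 were found among the 25737 entries of the table, and all 10 were among the 12870 genes that were tested. U87MG is an established human glioblastoma line. The cells had been exposed for 24 h to lentivirus that carried GFP as the control or 1 of the overexpression vectors of the ID family (ID1, ID2, ID3, ID4), and each of these 5 groups had 3 libraries. The ID proteins are inhibitors of DNA binding that dimerize with basic helix-loop-helix transcription factors. No drug that stresses the ER is named in the labels. The libraries were made with the QuantSeq kit, which reads the 3′ ends of polyadenylated transcripts, and each level is a CPM value, the count scaled to the library total. The labels number the libraries 1 to 3 in each group without saying that they came from separate cultures, so that p-values measure the spread between these libraries, which may be technical.

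The ER is where secreted and membrane proteins fold. When unfolded proteins build up there, 3 sensors in its membrane, IRE1 (ERN1), ATF6 and PERK (EIF2AK3), send signals to the nucleus. IRE1 splices the XBP1 mRNA so that it encodes an active transcription factor, and ATF6 is cut in the Golgi to release another. Both factors raise genes for chaperones, folding enzymes and ER-associated degradation, the path by which misfolded proteins are moved to the cytosol and destroyed. PERK slows translation and favors synthesis of ATF4. The response is known to be active in many gliomas. Splicing of XBP1, cleavage of ATF6 and protein levels are not visible in counts per gene.

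The promoter windows of these genes hold the letters through which the response is known to act, and they are shown first because they are what several members share in sequence. RefSeq windows from 250 bases before to 50 bases after the transcription start were searched on both strands. They were taken from a table of the GRCh38.p14 assembly and placed on GRCh37, the build of the deposited data, by an exact match. All 10 genes had a window, and 14 of their 15 windows were placed. The window of MANF was not, so it was searched without a position on GRCh37. The ER stress response element (ERSE) was searched as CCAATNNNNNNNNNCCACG, ERSE-II as ATTGGNCCACG and the core of the unfolded protein response element (UPRE) as TGACGTGG. The ERSE was found in windows of XBP1, CALR, CANX and CRELD2, and ERSE-II in those of HERPUD1, SDF2L1 and HYOU1. XBP1 and CANX had alternative windows, and not every window of these genes held the motif. The CANX matches were the same stretch seen from different starts. In the lines below, with 10 bases on each side, capitals mark the CCAAT box, which reads ATTGG on the opposite strand, and the CCACG box, which reads CGTGG there. The boxes lie on the same strand in the ERSE and on opposite strands in ERSE-II.
XBP1: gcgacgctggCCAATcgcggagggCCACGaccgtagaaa
CANX: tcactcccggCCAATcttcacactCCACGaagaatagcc
CALR: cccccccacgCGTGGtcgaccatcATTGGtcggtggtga
CRELD2: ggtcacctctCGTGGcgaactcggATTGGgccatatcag
HERPUD1: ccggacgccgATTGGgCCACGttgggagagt
SDF2L1: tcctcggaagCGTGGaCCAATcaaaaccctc
HYOU1, upstream copy: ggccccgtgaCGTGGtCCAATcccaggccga
HYOU1, downstream copy: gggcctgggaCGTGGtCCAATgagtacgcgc

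On GRCh37, these stretches lie at chr22:29196581-29196619 for XBP1, chr5:179125769-179125807 for CANX, chr19:13049188-13049226 for CALR and chr22:50312192-50312230 for CRELD2. Those with ERSE-II lie at chr16:56965927-56965957 for HERPUD1, at chr22:21996393-21996423 for SDF2L1, and at chr11:118928081-118928111 and chr11:118927975-118928005 for HYOU1. They are printed 5′ to 3′ on the strand of the gene. XBP1 and HYOU1 are on the minus strand and the others named here on the plus strand. The UPRE core was found in 1 member, HYOU1, where it overlaps the upstream ERSE-II. Of 35116 promoter windows in the table, 27 (0.0769%) held the ERSE, 19 (0.0541%) held ERSE-II and 256 (0.729%) held the UPRE core. Counted by gene, 7 of the 10 members and 1.08% of 27305 genes had a window with at least 1 of the 3 motifs. The members were chosen as known targets, so this share is a description of the choice. The windows of EDEM1, PDIA4 and MANF did not hold these letters.

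**Figure D1:**
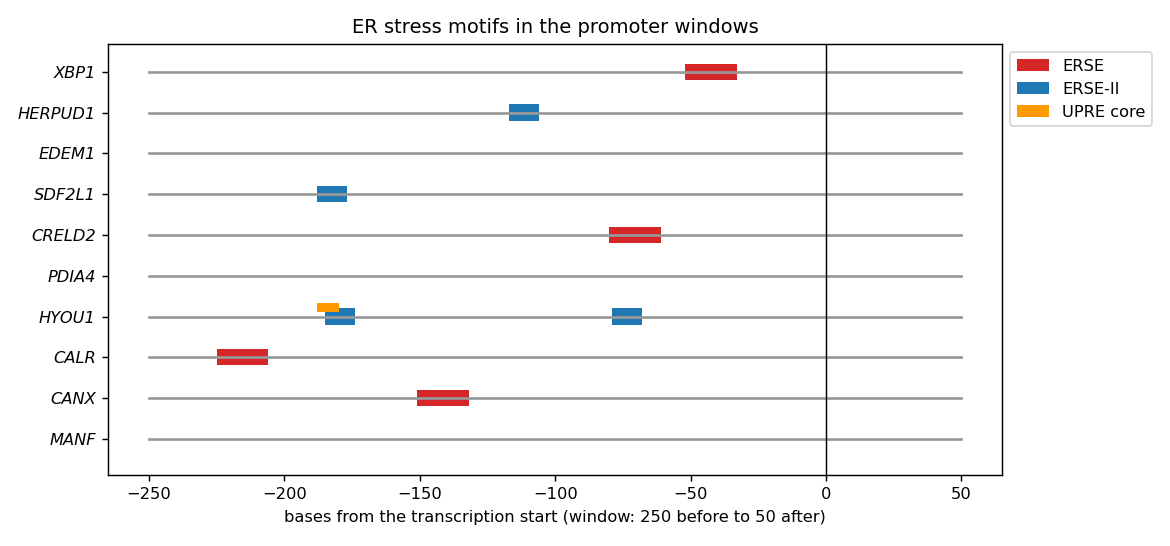
Positions of the ERSE, ERSE-II and UPRE core motifs in a promoter window of each of the 10 genes, in bases from the transcription start (x axis); gray lines are the searched windows. Motifs stand in 7 of the 10 windows, and HYOU1 has 2 copies of ERSE-II, 1 of them overlapped by the UPRE core.

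Libraries had 11089044 to 15148979 counts, so that 3 counts, taken as the floor, were 0.198 to 0.271 CPM, for counting error only. ID4 mRNA was at 210 to 235 CPM in the libraries labelled ID4 and at most 0.166 CPM in GFP. ID3 was at 301 to 323 CPM with its own label against 214 to 230 in GFP. The libraries labelled ID2, at 267.9 to 319.0 CPM of ID3 mRNA, overlapped with those labelled ID3. By contrast, ID1 was at 247 to 254 CPM with its own label against 337 to 350 in GFP, and ID2 at 43.7 to 46.2 against 83.1 to 88.7. The libraries labelled ID3 had 45.55 to 48.66 CPM of ID2 mRNA, overlapping with those labelled ID2. Counts of ID1 and ID2 thus went against the labels, and ID3 mRNA did not set the ID3 label apart from ID2. The groups are named by their labels throughout, and every direction below is one between labelled libraries. Because reads come from 3′ ends and the vector sequences were not used here, this check cannot tell vector transcripts from those of the cell's own genes. The third ID2 library stood apart. Its counts differed from those of the other ID2 libraries with a chi-square of 10.9 to 11.4 per degree of freedom, against 2.25 to 5.30 in the other 13 pairs of libraries of a group. VIM, CD44, FN1 and S100A6, markers of mesenchymal glioma cells, were at 493 CPM or more in every library. GFAP, an astrocyte marker, was at 0.335 CPM or less. The full marker lists were not split this cleanly. NES, also listed as a glioma and mesenchymal marker, was at 16.64 to 29.81 CPM, and CHI3L1 of that list was as low as 19.64 CPM. SLC1A3, listed with GFAP, was at 18.03 to 32.84 CPM and thus overlapped with NES. The summed level of 8 glioma and mesenchymal markers was 18070 to 19060 CPM in GFP, 22140 to 24490 in ID1 and ID4, 27560 to 29330 in ID3 and 30430 to 31080 in ID2. Most of this sum came from FN1, S100A6 and VIM, at 5816 to 15010, 7186 to 10480 and 3481 to 4765 CPM over all libraries. It thus mainly follows these genes, FN1 with the widest range, rather than all 8 markers. The part of this sum in the results below was not tested.

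For each ID label, the comparison with GFP asks whether these genes differed from the control. In the ID2 group, 9 of the 10 genes differed from GFP at an adjusted p under 0.05, and 7 of them rose, led by CRELD2 (1.61-fold) and PDIA4 (1.51-fold). XBP1 fell in all 4 ID groups, to 0.705 of the GFP level in ID1 and to 0.860 in ID2. PDIA4, a protein disulfide isomerase, and MANF, a small protein that is secreted under ER stress, rose in all 4. The number of genes past the threshold was 4 in ID1 (2 higher, 2 lower), 9 in ID2 (7 higher, 2 lower), 5 in ID3 (4 higher, 1 lower) and 3 in ID4 (2 higher, 1 lower). Among all 12870 tested genes, the share past the threshold was 22.1% for ID1, 35.1% for ID2, 28.6% for ID3 and 21.6% for ID4. Genes with higher levels made up 12.4%, 18.5%, 15.1% and 12.1% of those tested, and genes with lower levels 9.73%, 16.7%, 13.5% and 9.51%. The median log2 fold change of the 10 genes was 0.12 in ID1, 0.29 in ID2, 0.15 in ID3 and 0.08 in ID4, with medians over all tested genes of 0.00 in each comparison. On the chromosomes that hold the 10 genes, the median of the other tested genes was between -0.08 and 0.09. The 4 comparisons share the GFP libraries and are not independent of each other. Without the second GFP library, 2 of the 10 genes passed in ID1 and 2 in ID3, and without the third ID2 library 9 passed in ID2. In the same settings, 2313, 2909 and 4425 of the 12870 tested genes passed in ID1, ID3 and ID2. The counts in ID1 and ID3 were then near the share of all tested genes. In ID4 the count of 3 was near that share with all libraries. It was 2 without the second GFP library, when 2155 of all tested genes passed. In bulk RNA, a change in the number of cells that express a gene cannot be told apart from a change per cell.

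**Figure D2:**
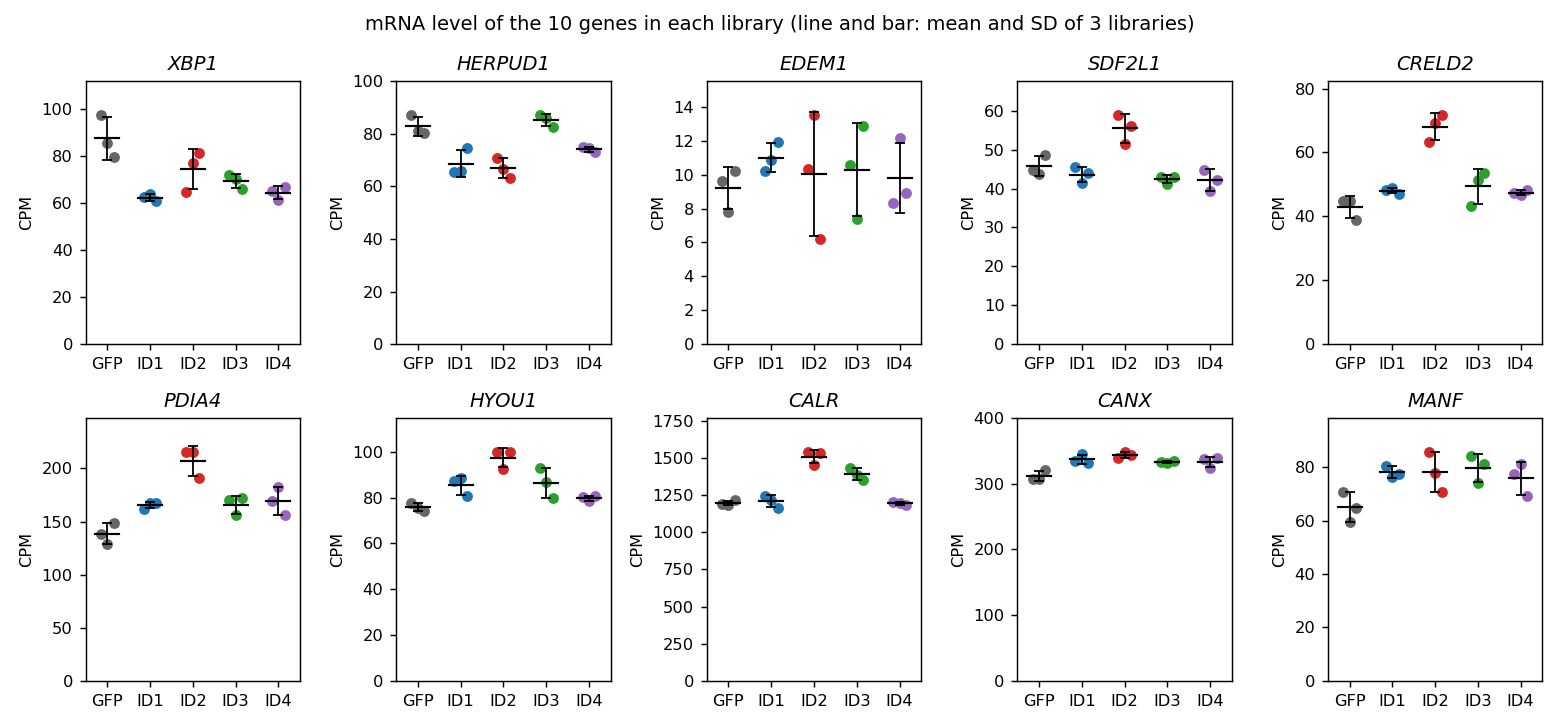
mRNA levels of the 10 genes in CPM (y axes from 0) in the 3 libraries of each group (x axis); points are libraries, and lines with bars are the mean and SD. The ID2 points of SDF2L1, CRELD2, PDIA4 and CALR stand above those of all other groups, and the mean of XBP1 is highest in GFP.

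XBP1, on chromosome 22 of GRCh37 from 29190543 to 29196585, encodes the transcription factor that IRE1 activates by splicing. In GFP libraries 1 to 3 it was at 97.3, 85.6 and 79.5 CPM. In the ID1 libraries it was at 62.4, 63.9 and 60.7 CPM, and in the ID4 libraries at 65.0, 61.4 and 66.7 CPM. Every library of these 2 ID groups was thus lower than every GFP library. The ID3 libraries were at 71.7, 70.2 and 65.9 CPM, also without overlap with GFP. The ID2 libraries, at 64.9, 77.1 and 81.2 CPM, overlapped with GFP. Against GFP, the log2 fold change was -0.50 in ID1 (standard error 0.08, adjusted p = 5.12e-05, edgeR quasi-likelihood with Benjamini-Hochberg correction), and it was -0.44 in ID4 (0.08, adjusted p = 0.00024). It was -0.36 in ID3 (0.08, adjusted p = 0.00133) and -0.22 in ID2 (0.08, adjusted p = 0.0328). The ID2 call did not hold without GFP library 1 (log2 fold change -0.14, adjusted p = 0.19), GFP library 2 (adjusted p = 0.0546) or ID2 library 1 (-0.13, adjusted p = 0.215), or in a fit of these 2 groups alone (adjusted p = 0.108). ID1 and ID4, which had the lowest levels, did not pass against each other (log2 difference -0.06, adjusted p = 0.783).

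CRELD2, on chromosome 22 from 50311815 to 50321188, encodes a disulfide isomerase that is secreted during ER stress. Its levels were 44.8, 44.8 and 38.8 CPM in GFP and 63.3, 69.3 and 71.6 CPM in ID2, without overlap. In the other groups they were 48.3, 48.8 and 47.1 CPM for ID1, 43.3, 51.5 and 53.6 for ID3, and 47.3, 46.7 and 48.3 for ID4. The ID2 libraries were thus above all 12 others. It rose in ID2 by 0.69 on the log2 scale (standard error 0.08, adjusted p = 6.73e-07), the largest among the 10 genes in this comparison. In ID1, ID3 and ID4, values of 0.15, 0.19 and 0.15 did not pass (adjusted p = 0.215, 0.0943 and 0.235). Without ID3 library 1, which was within the GFP range, the ID3 value was 0.28 and passed (adjusted p = 0.0118). CRELD2 overlaps ALG12 on the other strand at their 5′ ends, and whether strand was used in counting is not given in the sources used here. The same holds for CALR, HYOU1 and EDEM1, which are overlapped on the other strand by annotated genes without a symbol. HERPUD1 is overlapped by such genes on its own strand. CANX is overlapped by HMGB3P22 on its own strand and by CBY3 on the other. Reads could be split between genes that overlap.

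SDF2L1, on chromosome 22 from 21996591 to 21998588, encodes a partner of the chaperone BiP and its DNAJ co-chaperones. It was at 44.8, 43.8 and 48.6 CPM in GFP and at 58.8, 51.5 and 56.2 CPM in ID2. Levels in ID1 were 45.4, 41.4 and 44 CPM, those in ID3 43.0, 41.2 and 42.9, and those in ID4 44.9, 39.4 and 42.3. It rose in ID2, by 0.30 on the log2 scale (standard error 0.07, adjusted p = 0.0026). The log2 fold changes in ID1, ID3 and ID4 were -0.08, -0.13 and -0.12 and did not pass (adjusted p = 0.475, 0.198 and 0.293).

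PDIA4, on chromosome 7 from 148700154 to 148725754, encodes an ER enzyme that forms and rearranges disulfide bonds. The GFP libraries were at 139, 129 and 149 CPM, below every library of the ID groups. ID2 was highest, at 215, 215 and 191 CPM. The levels were 162, 167 and 167 CPM in ID1, 170, 156 and 172 in ID3, and 170, 183 and 156 in ID4. PDIA4 rose by 0.60 on the log2 scale in ID2 (standard error 0.07, adjusted p = 2.62e-07) and by 0.29 in ID4 (0.07, adjusted p = 0.00298). ID1 and ID3 both had a log2 fold change of 0.24 (0.07, adjusted p = 0.0103 and 0.00882), which did not pass without GFP library 2 (0.19 in both, adjusted p = 0.0722 and 0.0617).

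HYOU1, on chromosome 11 from 118914899 to 118927938, encodes a large chaperone of the HSP70 family that acts on BiP as a nucleotide exchange factor. It was at 77.7, 75.6 and 74.1 CPM in GFP and at 99.8, 92.6 and 99.8 CPM in ID2. Its levels were 87.2, 88.3 and 80.7 CPM in ID1, 92.9, 86.7 and 79.7 in ID3, and 80.2, 78.6 and 80.6 in ID4. All 12 ID libraries were above all GFP libraries. The log2 fold change was 0.38 in ID2 (standard error 0.06, adjusted p = 4.42e-05) and 0.17 in ID3 (0.06, adjusted p = 0.0439), and it was 0.16 in ID1 and 0.07 in ID4 (adjusted p = 0.0733 and 0.462). The ID3 call was lost under DESeq2 (adjusted p = 0.0573), in a fit of the 2 groups alone (0.0626), without a filter on low values (0.0799) and without any of the 3 GFP libraries or ID3 library 1 or 2 (adjusted p = 0.0679 to 0.21).

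CALR and CANX encode calreticulin and calnexin, the soluble and the membrane-bound lectin chaperone that hold glycoproteins while they fold. CALR lies on chromosome 19 from 13049392 to 13055303. It was at 1190, 1185 and 1214 CPM in GFP, at 1539, 1455 and 1533 CPM in ID2 and at 1431, 1387 and 1349 CPM in ID3. Both ID groups were above GFP without overlap. ID1, at 1246, 1219 and 1165 CPM, and ID4, at 1205, 1196 and 1186 CPM, overlapped with GFP. The log2 fold change was 0.35 in ID2 (standard error 0.04, adjusted p = 1.25e-06) and 0.19 in ID3 (0.04, adjusted p = 0.00155), and 0.00 in both ID1 and ID4 (0.04, adjusted p = 0.995 and 0.968). The ID1 and ID4 values took either sign between settings and stayed close to 0.

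CANX, on chromosome 5 from 179105629 to 179158642, had 308, 308 and 320 CPM in GFP and 340, 348 and 343 CPM in ID2. Levels in ID1 were 335, 345 and 332 CPM, those in ID3 334, 331 and 335, and those in ID4 338, 325 and 338. The GFP libraries were the lowest, but the differences were small. The log2 fold change was 0.16 in ID2 (standard error 0.04, adjusted p = 0.00884, or 0.0657 in a fit of the 2 groups alone). It was 0.10 in ID1, 0.08 in ID3 and 0.10 in ID4, and these did not pass (adjusted p = 0.135, 0.225 and 0.145).

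MANF, on chromosome 3 from 51422722 to 51426828, was at 70.8, 59.5 and 64.7 CPM in GFP. The levels were 80.5, 76.2 and 77.6 CPM in ID1, 85.6, 78.0 and 70.9 in ID2, 84.2, 74.1 and 81.1 in ID3, and 77.3, 81.2 and 69.1 in ID4. ID1, ID2 and ID3 stood above GFP without overlap, whereas the lowest ID4 library fell within the GFP range. The log2 fold changes lay close together, at 0.25 in ID1, 0.28 in ID2, 0.27 in ID3 and 0.22 in ID4 (standard error 0.08 each, adjusted p = 0.0212, 0.00586, 0.00924 and 0.0456). Without GFP library 2, the lowest, the values in ID1, ID3 and ID4 were 0.19, 0.22 and 0.16 and did not pass (adjusted p = 0.122, 0.0641 and 0.208). The ID1 call was also lost without GFP library 3 or ID1 library 1 or 3 (adjusted p = 0.0532 to 0.0809), the ID3 call without ID3 library 1 (0.0521) and the ID4 call without GFP library 3 or ID4 library 1 or 2 (0.106 to 0.189). With library totals alone as the scale, the ID4 value was 0.22 and did not pass either (adjusted p = 0.0535).

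HERPUD1 and EDEM1 serve ER-associated degradation. HERPUD1 encodes a membrane protein of the ubiquitin ligase complex and lies on chromosome 16 from 56966054 to 56978776. It was at 87, 81.2 and 80.4 CPM in GFP and at 87, 86.0 and 82.5 CPM in ID3, so that these groups overlapped. The ID1 libraries were at 65.4, 65.8 and 74.5 CPM and the ID2 libraries at 70.8, 66.7 and 63.1 CPM, all below GFP. ID4 was at 75.0, 74.4 and 73.1 CPM, with a mean between those of GFP and of ID1 and ID2, and its libraries overlapped with ID1. HERPUD1 had a log2 fold change of -0.29 in ID1 (standard error 0.06, adjusted p = 0.00124) and -0.29 in ID2 (0.06, adjusted p = 0.000629). It was -0.16 in ID4 (adjusted p = 0.0617) and 0.02 in ID3 (adjusted p = 0.853). Of the 10 genes, HERPUD1 and XBP1 were the ones that fell with any label.

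EDEM1, a mannosidase-like protein that picks out misfolded glycoproteins, lies on chromosome 3 from 5229331 to 5261643 and had 90 to 195 counts per library. It was at 9.65, 7.79 and 10.2 CPM in GFP, at 10.2, 10.8 and 11.9 in ID1 and at 10.3, 13.5 and 6.23 in ID2. In ID3 it was at 10.6, 7.40 and 12.9 CPM and in ID4 at 8.36, 12.2 and 8.93. The spread within ID2, from 6.23 to 13.5 CPM, was wider than the whole GFP range. None of its log2 fold changes, 0.24, 0.14, 0.13 and 0.08 for ID1 to ID4, passed the test (standard error 0.22 each, adjusted p = 0.494 to 0.849), and each was close to or below its standard error.

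**Figure D3:**
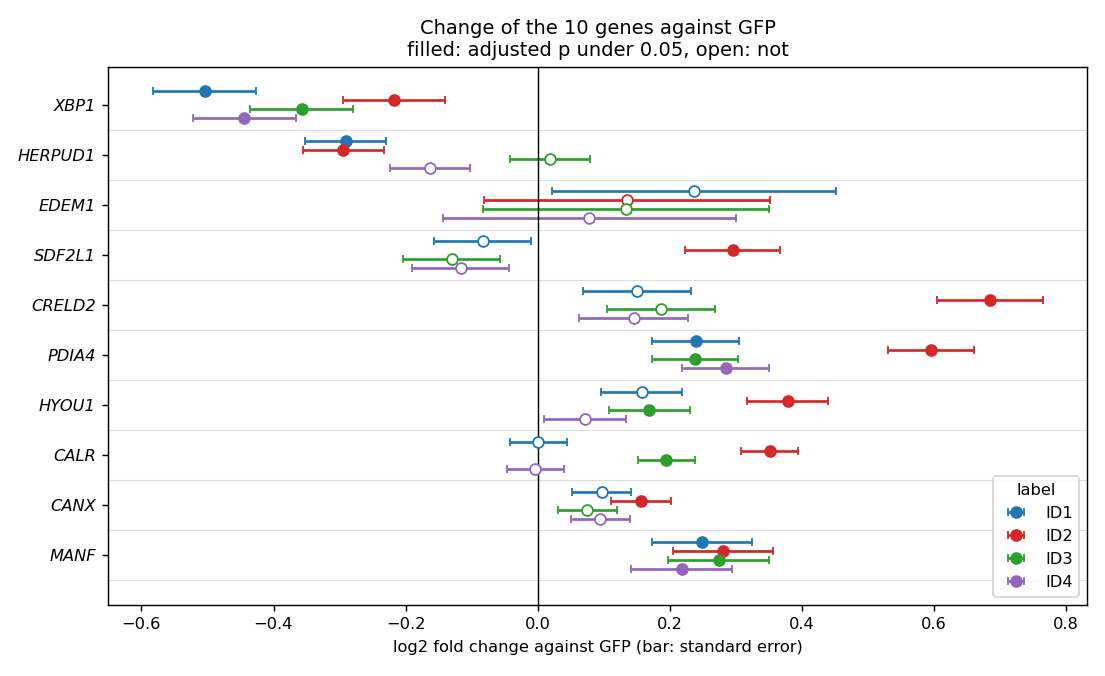
Log2 fold change of the 10 genes against GFP (x axis) for each ID label (colors), with the standard error as bars; filled points passed an adjusted p of 0.05 and open points did not. CRELD2 and PDIA4 in ID2 lie farthest to the right, at 0.69 and 0.60, and XBP1 lies left of 0 with every label.

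The next question was whether the ID groups differed from each other, which was tested without the GFP libraries as a shared control. ID2 had the highest mean level of 6 of the 10 genes. Against ID1, 6 genes were higher in ID2 and none was lower, when 18.6% of all tested genes differed between these groups. The log2 differences of ID1 minus ID2 were -0.53 for CRELD2, -0.38 for SDF2L1, -0.36 for PDIA4, -0.35 for CALR and -0.22 for HYOU1 (adjusted p = 5.12e-05, 0.000692, 0.000477, 5.66e-06 and 0.0126). XBP1 was lower in ID1 as well, with -0.29 (adjusted p = 0.0124). The XBP1 call was lost without ID1 library 3 (adjusted p = 0.0574) or ID2 library 3 (0.0599), and the HYOU1 call without ID1 library 3 (0.0861).

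Against ID4, 6 genes were higher in ID2 and none was lower, when 18.6% of tested genes differed. The log2 differences were 0.54 for CRELD2, 0.41 for SDF2L1, 0.35 for CALR, 0.31 for PDIA4 and 0.31 for HYOU1 (adjusted p = 4.53e-05, 0.00031, 3.67e-06, 0.00166 and 0.00112). For XBP1 the difference was 0.23 with overlapping libraries (adjusted p = 0.0482), and it no longer passed in 12 of 14 other settings. Against ID3, 5 genes were higher in ID2 and 1 was lower, when 15% of tested genes differed. CRELD2, SDF2L1 and PDIA4 were higher by 0.50, 0.43 and 0.36 (adjusted p = 0.000141, 0.000289 and 0.000598). CALR and HYOU1 were higher by 0.16 and 0.21 (adjusted p = 0.0157 and 0.0214), and both calls were lost with library totals alone as the scale (adjusted p = 0.0505 and 0.0613), in a fit of the 2 groups alone, and without ID2 library 1 or ID3 library 3. HERPUD1 was the gene lower in ID2 than in ID3, with a log2 difference of -0.31 (adjusted p = 0.00112).

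ID3 differed from ID1 in HERPUD1 and CALR, which were lower in ID1 by log2 differences of -0.31 and -0.19 (adjusted p = 0.0024 and 0.00615), when 9.18% of tested genes differed. It differed from ID4 in CALR, which was higher in ID3 by 0.20 (adjusted p = 0.0046), when 11.3% of tested genes differed. HERPUD1 was 0.18 higher in ID3 than in ID4 without passing (adjusted p = 0.0577), and it passed with library totals alone (0.0429) and in a fit of the 2 groups alone (0.0371). Between ID1 and ID4, edgeR called 0 of the 10 genes, when 4.87% of tested genes differed. At an unadjusted p under 0.05 it was 1 gene, and DESeq2 and limma called 0. Differences in CANX, MANF and EDEM1 did not pass between any pair of ID groups.

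The order of the levels was ID2, ID3, ID1, ID4 and GFP, from high to low, for CRELD2 and HYOU1. CALR had the same order down to ID1, and its ID4 and GFP means were both 1196 CPM. Neighbors in this order differed between ID2 and ID3 for all 3 genes and between ID3 and ID1 for CALR, and the other neighbors did not pass. PDIA4 had the order ID2, ID4, ID3, ID1 and GFP, with ID2 above ID4 and ID1 above GFP at the threshold. XBP1 had the order GFP, ID2, ID3, ID4 and ID1, and only the step from GFP to ID2 passed.

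Other genes of the pathway were then described by lists, whose counts are given without a test of the list. Of all tested genes, 12.4%, 18.5%, 15.1% and 12.1% were higher than in GFP in ID1 to ID4. Those lower made up 9.73%, 16.7%, 13.5% and 9.51%. BiP itself (HSPA5), the main chaperone of the ER and the best known target of ATF6, was at 1434 to 1467 CPM in GFP and at 1335 to 1522 CPM in the ID groups. Its log2 fold changes of -0.01, 0.02, -0.06 and -0.05 in ID1 to ID4 did not pass (adjusted p = 0.372 to 0.917). HSP90B1, the HSP90 protein of the ER, rose in all 4 groups, from 664 to 685 CPM in GFP to 938 to 978 CPM in ID2. The log2 fold changes were 0.19, 0.52, 0.30 and 0.16 (adjusted p = 0.00184, 1.61e-09, 9.08e-06 and 0.0092). DNAJB9, a co-chaperone that XBP1 is known to induce, was at 8.04 to 10.3 CPM in GFP and 13.2 to 16.7 CPM in ID3, where it rose by 0.64 (adjusted p = 0.00103). Its values of 0.38, 0.25 and 0.11 in ID1, ID2 and ID4 did not pass (adjusted p = 0.0558, 0.173 and 0.65).

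Of 12 tested chaperones and co-chaperones, 4 rose in ID1, 8 in ID2, 6 in ID3 and 3 in ID4, and none fell. The medians were 0.10, 0.28, 0.25 and 0.09. CALU, a calcium-binding protein of the secretory pathway, rose most, by 0.65 in ID2 (standard error 0.05, adjusted p = 6.87e-10). CDNF, a relative of MANF, was at 1.07 CPM or less and was not tested. Of 13 isomerases, 3, 6, 3 and 2 rose and 2, 2, 1 and 2 fell in ID1 to ID4. PPIB, a prolyl isomerase, rose by 0.70 in ID4 (0.21, adjusted p = 0.0219). It also rose in ID2 and ID3, by 0.68 and 0.57 (adjusted p = 0.0157 and 0.0483), and its 0.53 in ID1 did not pass (0.0841). ERO1A, which passes oxidizing power to the disulfide isomerases, fell in all 4 groups, in ID4 by 0.31 (log2 fold change -0.31, standard error 0.06, adjusted p = 0.00113).

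Of 18 genes of ER-associated degradation, 2, 5, 5 and 3 rose and 0, 2, 2 and 1 fell. EDEM2, a relative of EDEM1, rose by 0.75 in ID2 (0.11, adjusted p = 1.21e-05), whereas SYVN1, the ubiquitin ligase HRD1, had a log2 fold change of -0.26 there (0.07, adjusted p = 0.00391). EDEM2 also rose in ID3 and ID4, by 0.51 and 0.38 (adjusted p = 0.00122 and 0.0192). SYVN1 also fell in ID3 and ID4, with -0.19 and -0.23 (adjusted p = 0.0393 and 0.016). Of 22 genes of the translocon, signal peptidase and oligosaccharyl transferase, which bring proteins into the ER and modify them, 4, 7, 5 and 3 rose and 0, 3, 2 and 1 fell. SEC11A of the signal peptidase rose by 0.50 in ID4 (0.07, adjusted p = 1.8e-05), and SSR3 of the translocon had a log2 fold change of -0.34 in ID3 (0.05, adjusted p = 4.02e-05). SEC11A also rose in ID1 and ID3, by 0.37 and 0.20 (adjusted p = 0.000445 and 0.04), and SSR3 also fell in ID4 (-0.16, adjusted p = 0.0366). Of 14 genes of COPII transport and KDEL receptors, 1, 6, 5 and 1 rose and 2, 2, 1 and 2 fell. SEC13 rose by 0.30 in ID2 (0.07, adjusted p = 0.00218) and SEC24D, a cargo adaptor of the COPII coat, had a log2 fold change of -0.43 in ID4 (0.12, adjusted p = 0.01). The medians of these 4 lists were between -0.03 and 0.21. Several of their counts were near the shares of all tested genes. An example is the 2 of 18 genes of ER-associated degradation that rose in ID1, where 12.4% of all tested genes were higher.

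The sensors differed little in mRNA. ATF6 was at 49.0 to 50.6 CPM in GFP and at 41.0 to 60.8 CPM in the ID groups (adjusted p = 0.276 to 0.546). EIF2AK3 was at 32.6 to 33.8 CPM in GFP and passed in ID3, at 36.7 to 42.2 CPM (log2 fold change 0.22, standard error 0.08, adjusted p = 0.0354). ERN1 had at most 4 counts in any library and was not tested. Of 7 sensors and processing genes tested, 1 rose in ID2 and 2 in ID3, and none passed in ID1 or ID4. NFE2L1, a transcription factor held in the ER membrane, rose by 0.36 in ID2 (0.05, adjusted p = 7.71e-06) and by 0.30 in ID3 (0.05, adjusted p = 0.00012).

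Most genes listed for the PERK and ATF4 branch fell, and the part of PERK in this was not tested. Of the 14 genes on this list, 12 fell in each of the 4 groups and 1, 1, 2 and 1 rose in ID1 to ID4. The medians were -0.94, -0.99, -0.80 and -0.96 in ID1 to ID4. ATF4 was at 291 to 319 CPM in GFP and at 173 to 218 CPM in the ID groups, with log2 fold changes of -0.51, -0.73, -0.79 and -0.52 (adjusted p at most 3.02e-07). ASNS, the asparagine synthetase induced by ATF4, had a log2 fold change of -2.26 in ID2 (0.06, adjusted p = 5e-17). DDIT3, also named CHOP, was at 108 to 124 CPM in GFP and at 88.4 to 104 CPM in the ID groups, with log2 fold changes of -0.20, -0.21, -0.31 and -0.32 (adjusted p = 0.000347 to 0.0174). CEBPB, a transcription factor of this branch, was the gene that rose in every group, by 0.28, 0.29, 0.28 and 0.20 (adjusted p = 0.00178, 0.000722, 0.0014 and 0.0253), and it was named after its values were seen. ATF3, a stress-induced transcription factor, also rose in ID3, by 0.36 (0.13, adjusted p = 0.0443).

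**Figure D4:**
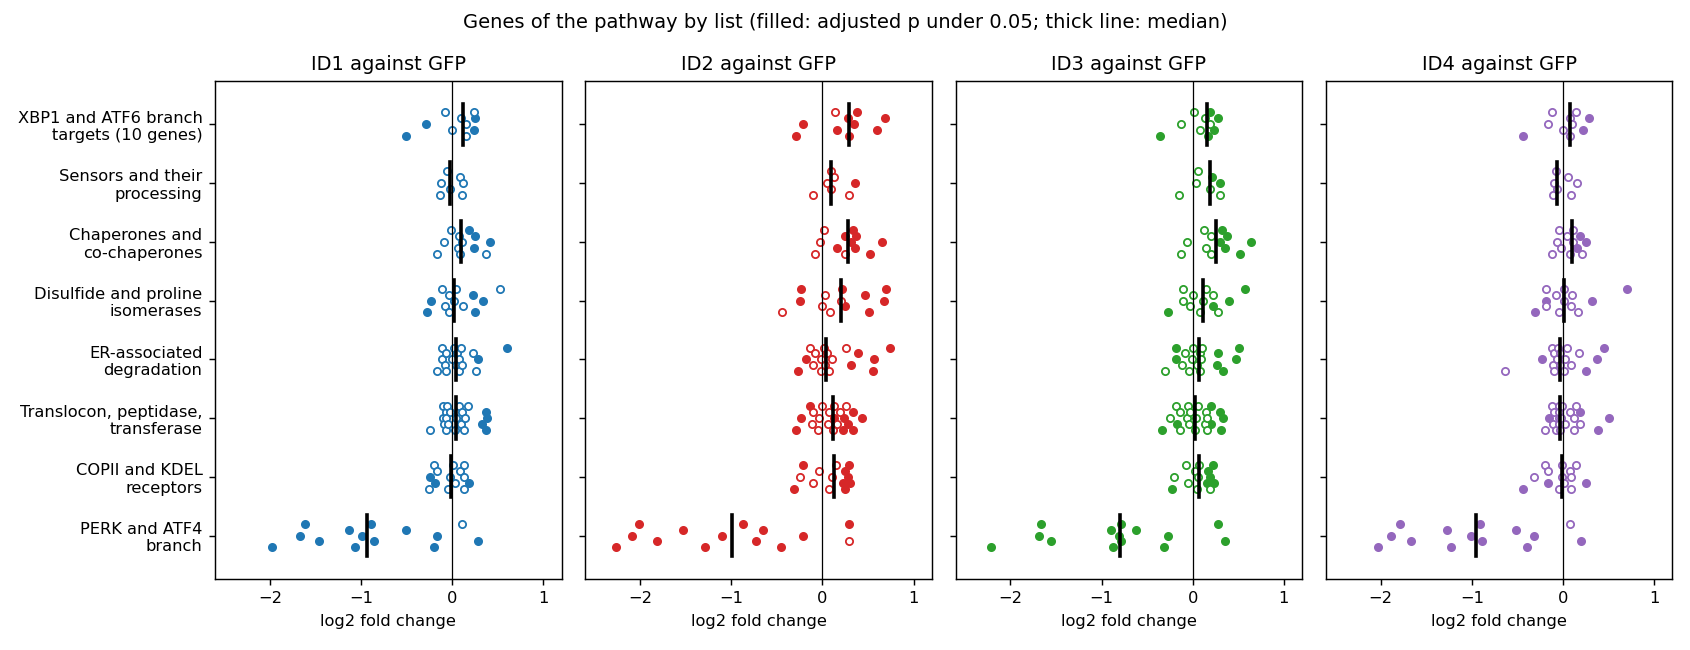
Log2 fold change against GFP (x axes) of the tested genes of each list (rows) for ID1 to ID4 (panels); filled points passed an adjusted p of 0.05 and thick lines are medians. In ID2 the median of the 10 genes is 0.29 and that of the chaperone list 0.28, and in every panel the PERK and ATF4 branch lies far to the left, with medians of -0.99 to -0.80.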

How the data were processed

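RNA was measured in 15 libraries of U87MG cells, made with the QuantSeq 3′ kit by eBiogen against hg19 (GRCh37). The submitters' processing notes name Bowtie2 and BWA without a role. The counting tool, annotation and normalization method are not given in the sources used here. The authors deposited raw counts per gene symbol and log2 values of normalized counts. Counts were scaled by library total to CPM. Tests used edgeR 4.0.16 in R 4.3.3 on the counts: TMM factors (0.978 to 1.03), a quasi-likelihood fit of 5 group means to the 15 libraries (common dispersion 0.00463), and Benjamini-Hochberg adjustment over 12870 genes, the upper 50% by mean deposited log2 value (at least 3.22). The test was tried on simulated data. Standard errors are those of the log2 fold change.

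The 10 genes and the lists were chosen with earlier results of these data known. ATF6B, listed 4 times, was left out of its list. Beside the 10 genes, the text names HSPA5, HSP90B1, DNAJB9, ERN1, ATF6, EIF2AK3, ATF4 and DDIT3, the highest and the lowest changed gene of each list among those past the threshold against GFP, and ID1 to ID4 as a check of the labels. Alternatives were DESeq2 1.42.0, library totals or upper quartile factors as the scale, filterByExpr or no filter, only the 2 groups compared, limma 3.58.1 with trend on the deposited log2 values, a replicate block, and leaving out each library. Positions came from GENCODE lifted to GRCh37 and promoter windows from RefSeq. Figures were drawn with matplotlib 3.10.9.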

Additional observations from a re-analysis of the deposited data

How the results depend on the processing

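For the 10 genes, 798 values under other settings had the same direction and side of the threshold as reported, 51 no longer passed, 3 newly passed and 16 changed sign. The sign changes concerned values that did not pass. For CALR in ID1 against GFP they were -0.0026 with DESeq2, -0.0036 with filterByExpr, -0.0016 without a filter and with only the 2 groups compared, -0.0017 with limma, and the range with a library left out was -0.0229 to 0.0263. For CALR in ID4 against GFP the value was 0.0081 with upper quartile factors and -0.0192 to 0.0069 with a library left out. EDEM1 ranged from -0.14 to 0.38 in ID2, from -0.059 to 0.32 in ID3 and from -0.092 to 0.18 in ID4 with a library left out.

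With a library left out, the number of the 10 genes past the threshold was 2 to 4 in ID1 against GFP and 2 to 5 in ID3 against GFP, lowest without GFP library 2. In ID4 against GFP it was 2 to 3, when 2133 to 2349 of all tested genes passed. Between ID3 and ID4 it was 2 with library totals alone and with only the 2 groups compared. Over all tested genes, the number was 634 to 1165 for ID1 against ID3, 363 to 423 for ID1 against ID4 and 800 to 1377 for ID3 against ID4 with a library left out. With only the 2 groups compared, it was 1064 for ID1 against ID4 (627 reported) and 1073 for ID2 against ID3 (1935 reported). The cause was not tested.

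Libraries of equal number did not regularly deviate together (correlations -0.25 to 0.24 across genes, own number best in 15 of 60 comparisons). No pairing by number was thus seen, which does not exclude it, because the labels do not say what the number marks. With the replicate number as a block, 4, 8, 4 and 3 of the 10 genes passed against GFP in ID1 to ID4, and 2713, 4362, 3517 and 2585 of all tested genes. XBP1 in ID2 (adjusted p = 0.0504) and HYOU1 in ID3 (0.0506) against GFP, and XBP1 between ID2 and ID4 (0.0713), no longer passed. EDEM1 had the fewest counts of the 10 genes (90 to 195 per library) and the largest standard errors. Whether depth or spread between libraries sets them was not tested.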

Other observations

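Genes of the other pathway lists were also compared between ID2 and the other ID groups. Of the 12 chaperones and co-chaperones tested, 5 were higher in ID2 than in ID1 and 5 were higher than in ID4, and none was lower in either comparison. Against ID3, 1 was higher and 1 was lower. Of all tested genes, 18.6% differed between ID2 and ID1, 18.6% between ID2 and ID4 and 15% between ID2 and ID3. The chaperone count against ID3 was near that share. HSP90B1 was higher in ID2 than in ID1, ID3 and ID4, with log2 differences of -0.34 (coded as ID1 minus ID2), 0.22 and 0.37 (adjusted p = 6.06e-06, 0.000794 and 1.21e-06 edgeR quasi-likelihood with Benjamini-Hochberg correction). DNAJB9 was the chaperone gene lower in ID2 than in ID3, with a log2 difference of -0.39 (adjusted p = 0.049).

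The genes of this paragraph were chosen after their values were seen. SEL1L, the adaptor of the HRD1 ubiquitin ligase, was lower in ID1 than in ID2 by a log2 difference of -0.42 (adjusted p = 2.18e-05), and it was higher in ID2 than in ID3 and ID4 by 0.23 and 0.34 (adjusted p = 0.0085 and 0.00016). KDELR3, a receptor that returns chaperones to the ER, had differences of -0.46, 0.22 and 0.49 in the same order (adjusted p = 0.000113, 0.0387 and 5.3e-05). SEC61B, a subunit of the translocon, went the other way, with 0.23, -0.26 and -0.26 (adjusted p = 0.00405, 0.00193 and 0.00189). These comparisons share the ID2 libraries.

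The ID1 and ID2 mRNA levels were below those of GFP in the libraries carrying their own label, and the summed level of 6 leukocyte markers, nearly all of it CD68 (49.0 to 73.4 CPM), was 75.0 to 77.9 CPM in ID2 against 52.0 to 72.1 CPM in the other groups. PTPRC, which marks all leukocytes, was at 0.554 CPM or less. Of 10 astrocyte and oligodendrocyte lineage markers, 3 had more than 3 counts in every library, and the sum of all 10 was 24.1 to 35.1 CPM. The sum of 5 epithelial markers was at most 1.39 CPM and that of 4 endothelial markers at most 1.74 CPM. The part of these markers in the results was not tested.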
